A study of Rattus norvegicus with 74 samples.

Results

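The genes described here carry fuel into the mitochondrial matrix and burn it there: the tricarboxylic acid (TCA) cycle, the pyruvate dehydrogenase complex with its kinases and phosphatase, the mitochondrial pyruvate carrier, and the enzymes that move amino acids and malate in and out of the cycle. They were chosen by gene symbol and function, with no threshold on any measured value. All 33 were present among the 30560 genes of the count tables. By role they comprise 14 genes of the TCA cycle, 4 of the pyruvate dehydrogenase core, 6 of its regulators, 2 of the pyruvate carrier and 7 of amino-acid and malate entry.

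Pyruvate made by glycolysis in the cytosol enters the matrix through the Mpc1 and Mpc2 carrier and is turned into acetyl-CoA by pyruvate dehydrogenase. The Pdk kinases switch that complex off by phosphorylation, and the Pdp phosphatases switch it on again. Citrate synthase then joins acetyl-CoA to oxaloacetate and the cycle returns to oxaloacetate, reducing the carriers that feed the respiratory chain, while aminotransferases such as Got1, Got2 and Gpt2 exchange carbon between the cycle and amino acids. Oxidative muscle and heart are rich in these enzymes, and endurance training is known to raise the activity of several of them in trained muscle.

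Male wild-type Wistar Kyoto rats aged 9 weeks gave RNA of 3 kinds: whole red gastrocnemius, a hindlimb muscle (SM), mitochondria purified from fresh pieces of it (MT), and left ventricle wall (LV). Trained rats (ExT) ran on a treadmill from 5 weeks of age for 4 weeks, 5 sessions a week, building up to 60 min at 20 m/min, and were killed 24 h after training ended. Sedentary rats (Sed) spent the same time on a stationary belt, and both arms drank water with deuterium oxide. There were 15 rats per arm for SM and MT and 7 of these per arm for LV, giving 74 libraries. Antibody capture yielded the mitochondria, which went through RNase-A and proteinase-K steps before extraction. SM and MT libraries were made with a Zymo kit and LV libraries with an Illumina kit, so tissue and kit cannot be told apart.

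Total counts per library were 19477976 to 39401323 in SM, 530397 to 9988027 in MT and 54645657 to 75758777 in LV. Of these, the genes described here took 102460 to 272657 counts in SM, only 613 to 1596 in MT, and 495913 to 703282 in LV. As a share of nuclear-encoded counts they made up 0.918% ± 0.146 (SD, n = 15) in SM_Sed, 1.06% ± 0.111 (n = 15) in SM_ExT, 1.60% ± 0.0859 (n = 7) in LV_Sed and 1.65% ± 0.0837 (n = 7) in LV_ExT. In MT the share was 0.140% to 0.166% in all 30 libraries, although mitochondrial-genome genes took anywhere from 12.9% to 95.4% of the counts. In SM mitochondrial-genome genes took 22.1% to 35.9%, so some MT libraries held no larger share of them than whole muscle. The medians were 45.9% in MT and 32.2% in SM. The labelled tissues carried their markers: 7 cardiac muscle genes summed to 26179 to 33220 CPM (each library's counts brought to one common total) in LV_Sed and to 17.2 to 65.4 CPM in SM_Sed. Libraries of rats numbered 2 to 16 and 17 to 32 differed in many genes in SM (12.3% of genes called, by the test below), so SM results are also given within each range. CPM carries no transcript length, so levels are compared between groups for each gene and not between genes.

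In whole muscle, Got1 was the 1 gene of the 32 tested that edgeR called higher after training, a call that was not made in rats 17 to 32 alone. It encodes the cytosolic aspartate aminotransferase, the cytosolic arm of the malate-aspartate shuttle that carries reducing equivalents into mitochondria. Its level was 174, 308 and 379.6 CPM (lowest, median, highest of 15) in SM_Sed and 322.6, 406 and 484 CPM in SM_ExT. All 15 trained rats lay above the sedentary median and 10 lay above the highest sedentary rat, while the lower end of the trained range overlapped the upper end of the sedentary one. The log2 fold change was 0.43 (SE 0.085), a 1.35-fold higher level, with an adjusted p of 0.0164 by edgeR's quasi-likelihood test with Benjamini-Hochberg adjustment over 13570 genes. That made 1 of 32 tested genes called (adjusted p under 0.05), in a comparison in which 0.206% of all genes were called and 0.184% were called higher. Gpt, at 0 to 3 counts per SM library, was too low to test. In bulk tissue, more RNA per cell and more cells of a type cannot be told apart.

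Got2 and Cs showed smaller differences that did not pass the test by edgeR and did pass it by DESeq2, which called 4 of 32 genes beside 1.01% of all genes. Got2 is the mitochondrial partner of Got1 in the same shuttle, and its level was 305, 448 and 537 CPM in SM_Sed and 472, 532 and 594 CPM in SM_ExT. Cs, citrate synthase, the entry enzyme of the cycle and a customary marker of mitochondrial content, was at 270.3, 372 and 440.4 CPM against 377, 429 and 479 CPM. For both genes every trained rat lay above the sedentary median, and 7 (Got2) and 6 (Cs) of 15 lay above the highest sedentary rat. The log2 fold change was 0.25 for Got2 (SE 0.06, adjusted p 0.0812) and 0.21 for Cs (SE 0.06, adjusted p 0.103) by edgeR, with adjusted p of 0.0191 and 0.0284 by DESeq2.

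**Figure D1:**
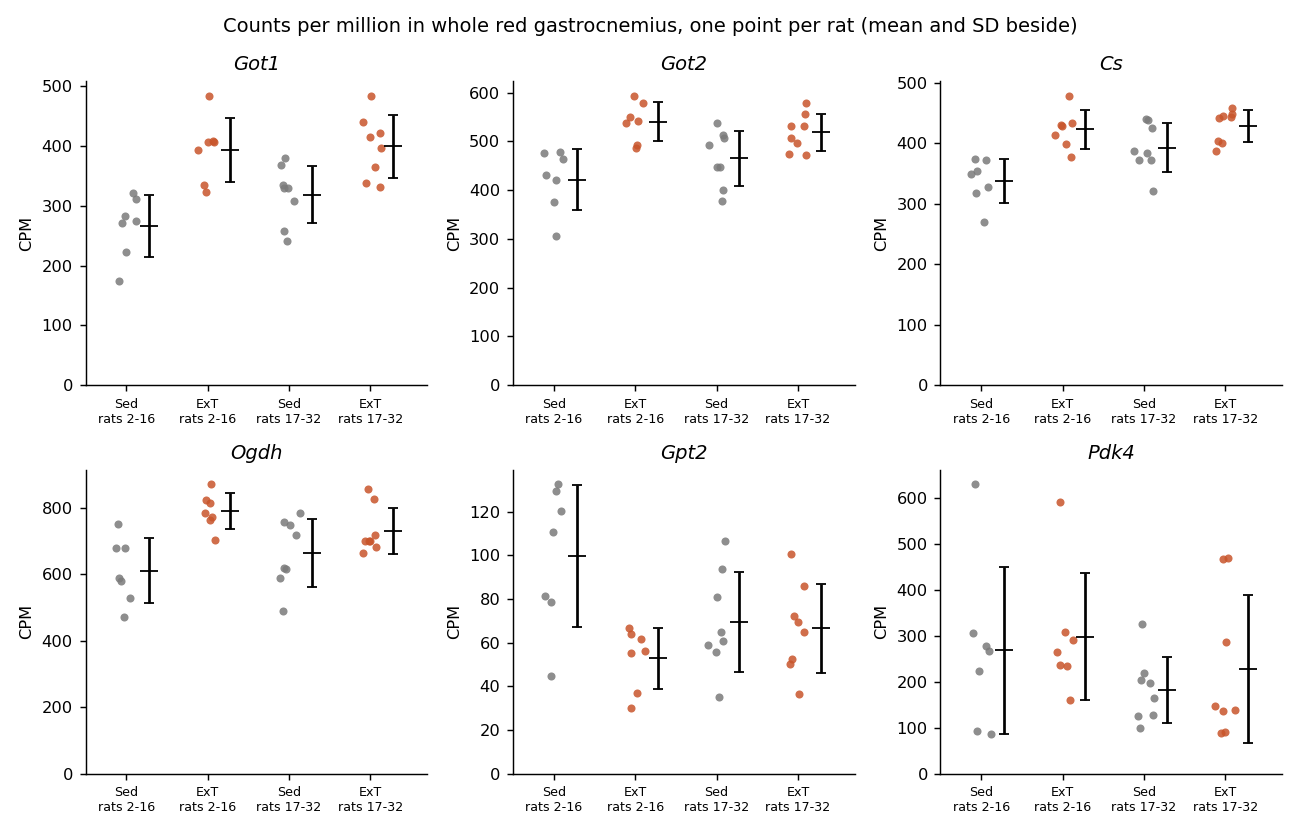
Level in whole muscle (CPM, vertical axis from 0) of Got1, Got2, Cs, Ogdh, Gpt2 and Pdk4 in each library, split by arm and by rat-number range, with the mean and SD. Trained rats sit higher for Got1, Gpt2 values spread widely among sedentary rats, and Pdk4 has 1 sedentary library at 629 CPM.

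Over all rat numbers, the other genes of the cycle had small positive values. Across the 14 TCA cycle genes all 14 log2 fold changes were positive, with a median of 0.13 and a range of 0.02 to 0.25, and edgeR called none, while DESeq2 called Cs and Ogdh. Ogdh, the catalytic subunit of the alpha-ketoglutarate dehydrogenase complex, had the highest value at 0.25 (adjusted p 0.122 by edgeR and 0.0438 by DESeq2), with 473, 619 and 784 CPM in SM_Sed and 666, 764 and 872 CPM in SM_ExT. Sucla2, the ATP-forming subunit of succinyl-CoA ligase, had the lowest at 0.02 (adjusted p 0.897). All 4 core genes of pyruvate dehydrogenase were also positive, from 0.06 for Pdha1, the catalytic subunit, to 0.20 for Dlat, the acetyl-transferring subunit (adjusted p 0.142). Counts for Pdha1 are uncertain because a near copy, Pdha1l1, can share its reads. Over all 32 genes the median was 0.11 with 28 positive, beside 47.9% positive among all genes tested.

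Over all rat numbers, the genes that gate pyruvate entry differed little between arms, apart from Pdk4, whose fold change was poorly determined. The log2 fold changes of the 6 regulators of pyruvate dehydrogenase had a median of 0.05, from -0.04 (Pdk3) to 0.22 (Pdk4). Pdk4, the kinase known to be induced by fasting and exercise, ranged from 86.1 through a median of 203 to 629 CPM in SM_Sed and from 87.7 through 237 to 589.9 CPM in SM_ExT, so that the arms overlapped almost fully. Pdk1 averaged 18.2 ± 3.07 CPM (SD, n = 15) in SM_Sed and 18.9 ± 3.12 in SM_ExT, Pdk2 186 ± 20.7 and 190.5 ± 24.0, Pdk3 1.55 ± 0.359 and 1.51 ± 0.317, and the carrier genes Mpc1 220.0 ± 40.1 and 225.8 ± 28.5 and Mpc2 112 ± 19.5 and 123.5 ± 17.5. Over all rat numbers, each of these differs by less than the SD within an arm. The coefficient of variation of Pdk4 was 61.3% in SM_Sed and 57.4% in SM_ExT, and the 95% interval of its log2 fold change ran from -0.35 to 0.80. Leaving out 1 library moved that fold change between 0.09 (without SM_ExT rat 9) and 0.43 (without SM_Sed rat 16), called in neither case. Pdk1, Pdk2, Mpc1 and Mpc2 had intervals of -0.11 to 0.22, -0.09 to 0.16, -0.12 to 0.20 and -0.02 to 0.30. By range, Mpc1 averaged 197 CPM (Sed) and 238 CPM (ExT) in rats 2 to 16, and 240 and 215 CPM in rats 17 to 32. Mpc2 averaged 103 and 131 CPM, and 121 and 117 CPM. The training effect in the second range minus the first was -0.43 (95% interval -0.72 to -0.14) for Mpc1. For Mpc2 it was -0.41 (-0.71 to -0.10), and neither difference was called after adjustment. Glud1, glutamate dehydrogenase, varied least, with coefficients of variation of 5.98% and 5.12%.

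Gpt2, the mitochondrial alanine aminotransferase that makes alanine from pyruvate, was the 1 gene below 0 at an unadjusted p under 0.05, against 10 above 0. Among all 13570 genes, 1860 had such a p by edgeR, in either direction. The level of Gpt2 was 35.1, 80.8 and 132.7 CPM in SM_Sed and 29.9, 61.5 and 100.8 CPM in SM_ExT, so that the arms overlapped over most of their range. The log2 fold change was -0.47 (SE 0.18, adjusted p 0.253), which did not pass the test. The arms were at 99.8 ± 32.5 (SD, n = 7) and 52.99 ± 14.01 CPM in rats 2 to 16, a log2 fold change of -0.91 (adjusted p 0.0590), and at 69.6 ± 22.9 (n = 8) and 66.7 ± 20.5 CPM in rats 17 to 32, a log2 fold change of -0.06 (adjusted p 0.983). The second range minus the first was 0.84 (95% interval 0.174 to 1.505), a difference that was not called after adjustment.

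The sequences upstream of Got1 and Gpt2 are shown because these genes have the most positive and the most negative fold change of the 32. They are the 250 bases before the RefSeq transcription start (assembly GRCr8), 5′ to 3′ on the gene's strand, with capitals marking CCAAT on either strand (CCAAT or ATTGG).
Got1, chr1:252329872-252330121, minus strand: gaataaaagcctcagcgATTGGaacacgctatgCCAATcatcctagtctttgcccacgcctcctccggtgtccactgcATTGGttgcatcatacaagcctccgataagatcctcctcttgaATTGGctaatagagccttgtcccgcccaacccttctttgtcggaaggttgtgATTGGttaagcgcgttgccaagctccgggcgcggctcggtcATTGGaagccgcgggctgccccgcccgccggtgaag
Gpt2, chr19:37732760-37733009, minus strand: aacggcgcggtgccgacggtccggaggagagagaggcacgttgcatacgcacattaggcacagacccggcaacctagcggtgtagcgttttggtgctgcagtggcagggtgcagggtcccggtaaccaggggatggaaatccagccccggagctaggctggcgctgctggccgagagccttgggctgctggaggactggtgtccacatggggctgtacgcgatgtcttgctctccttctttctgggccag
Got1 held 6 matches to CCAAT, beginning 36 to 233 bases before the start, a count reached by 11 of 33469 rat promoters of the same length (0.0329%), and Gpt2 held none. CCAAT was chosen after the Got1 sequence had been seen. Promoters of this kind were found for 30 of the 33 genes (Idh3a, Pdp1 and Gpt were not matched). CCAAT occurred in 16 of the 30 (53.3%) beside 34.0% of all promoters, and GGGCGG, the GC box, in 18 (60%) beside 30.5%. TNAAGGTCA, an element of ERR type, occurred in 0 of 30 beside 1.04% of all promoters, and an element of NRF1 type in 1, Sucla2, beside 3.75%. TGTTTAC, of FOXO type, occurred in 1, Pdhb, beside 3.21%, and CACGTG, an E-box, in 3, Ogdh, Pdhb and Pdk2, beside 5.59%. All searches covered both strands, and no match to one motif overlapped a match to another. These are matches of letters in one window and not measurements of binding.

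The training comparison in whole muscle was repeated within each range of rat numbers. In the lower numbers, 7 rats per arm, Got1 was at 265.7 ± 51.5 CPM (SD) in Sed and 393 ± 53.3 CPM in ExT, and in the higher numbers, 8 per arm, at 318.7 ± 48.4 and 399 ± 52.4 CPM. With the lower numbers alone 5 of 32 genes were called (Got1, Got2, Cs, Ogdh and Dlat), beside 2.95% of all genes, and the median log2 fold change was 0.21. With the higher numbers alone 0 of 32 were called, beside 0.00732% of all genes, and the median was 0.03 with 20 positive. For Got1 the log2 fold change was 0.57 (adjusted p 0.020) in the first range and 0.32 (adjusted p 0.687) in the second. The difference between the ranges itself was called for 0 of 32 genes by edgeR and by DESeq2, with 7 at an unadjusted p under 0.05 and 0% of all genes called by edgeR. An unadjusted p under 0.05 was found by edgeR for 1803 of all 14033 genes. Among the 32 genes the lowest adjusted p by edgeR was 0.242, for Mpc1. The training effect in the second range minus the first was negative for 27 of 32 genes and positive for 5 (median -0.19). Among all genes 48.5% were positive. For the TCA cycle genes it was negative for 14 of 14, with a median of -0.20.

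Markers of slow and fast muscle fibres also differed in level between these libraries. Sums over 8 slow-fibre genes were 4651, 13736 and 26288 CPM (lowest, median, highest) in SM_Sed and 4884, 18131 and 28981 CPM in SM_ExT, and sums over 8 fast-fibre genes were 56218, 84517 and 122772 CPM against 51640, 76227 and 89519 CPM. Log2 fold changes with training were positive for 8 of 8 slow genes (median 0.34) and negative for 7 of 8 fast genes (median -0.26), with none called. The log2 ratio of the sums averaged -2.79 ± 1.16 (SD, n = 15) in SM_Sed and -2.14 ± 0.82 in SM_ExT. The trained mean minus the sedentary mean was 1.42 among rats 2 to 16 and -0.035 among rats 17 to 32. Markers of other cell types were also compared between arms, and none was called. Nerve markers were positive for 4 of 4 (median 0.61), with sums of 9.98 to 131.6 CPM in SM_Sed and 26.02 to 158.5 CPM in SM_ExT, endothelial markers for 5 of 5 (0.16) and erythroid markers for 3 of 3 (0.18). Fibroblast and immune markers were positive for 0 of 5 each (medians -0.18 and -0.26), immune markers summing to 44.7 to 128 CPM in SM_Sed and 43.2 to 74.0 CPM in SM_ExT, and the 1 adipocyte marker tested was at -0.78. Their part in the results was not tested. The marker ratio was then added as a second term in the edgeR fit, a step taken after the data were seen. Got1 was again the 1 gene called, beside 0.0884% of all genes. Its log2 fold change was 0.34 (SE 0.070, adjusted p 0.0304), while Gpt2 was at -0.13. The median over the 32 genes was then 0.06, down from 0.11, with 26 positive.

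More of these genes were called against this ratio than with training. In a fit with the ratio and the arm as terms, 17 of 32 genes had a slope called by edgeR's quasi-likelihood test, 53.1% of them beside 18.7% of all genes. Of the 17, 16 rose with the ratio, beside 9.9% of all genes, and 1 fell, beside 8.84%. These were 9 TCA cycle genes, both pyruvate carrier genes, Pdhb and Pdhx of the complex, Pdk1, Got1 and Got2, all upward, and Gpt2 downward. Idh2, the NADP-linked isocitrate dehydrogenase, rose by 0.30 in log2 level per unit of log2 ratio (SE 0.027, adjusted p 2.04e-10). Mdh1, the cytosolic malate dehydrogenase, rose by 0.27 and Pdk1 by 0.21 (adjusted p 5.41e-07). Gpt2 fell by 0.44 (SE 0.050, adjusted p 5.38e-08), so its RNA was lower where slow-fibre marker RNA was higher relative to fast-fibre marker RNA. Gpt2 was not tested against the fast-fibre markers alone. Pdk4 had a slope of 0.35 (SE 0.149, adjusted p 0.110) that was not called.

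For Idh2 the correlation of log2 CPM with the log2 ratio over 30 SM libraries was r = 0.926 and rho = 0.888, each with a permutation p of 1e-05, the smallest that 100000 resamples can give, and r was 0.897 without the 2 libraries farthest from the median ratio. For Gpt2 it was r = -0.865 and rho = -0.876 (permutation p of 1e-05 for both), with r = -0.823 without the 2 farthest. Within arms r was 0.940 (Sed) and 0.889 (ExT) for Idh2 and -0.946 and -0.688 for Gpt2, and within rat ranges 0.946 and 0.904 for Idh2 and -0.893 and -0.831 for Gpt2. These are 2 of 32 such relations computed, of which 28 were positive. Both the level and the ratio come from the same library, and the dissected piece of muscle was not characterised otherwise here, so fibre content and regulation within fibres cannot be told apart.

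**Figure D2:**
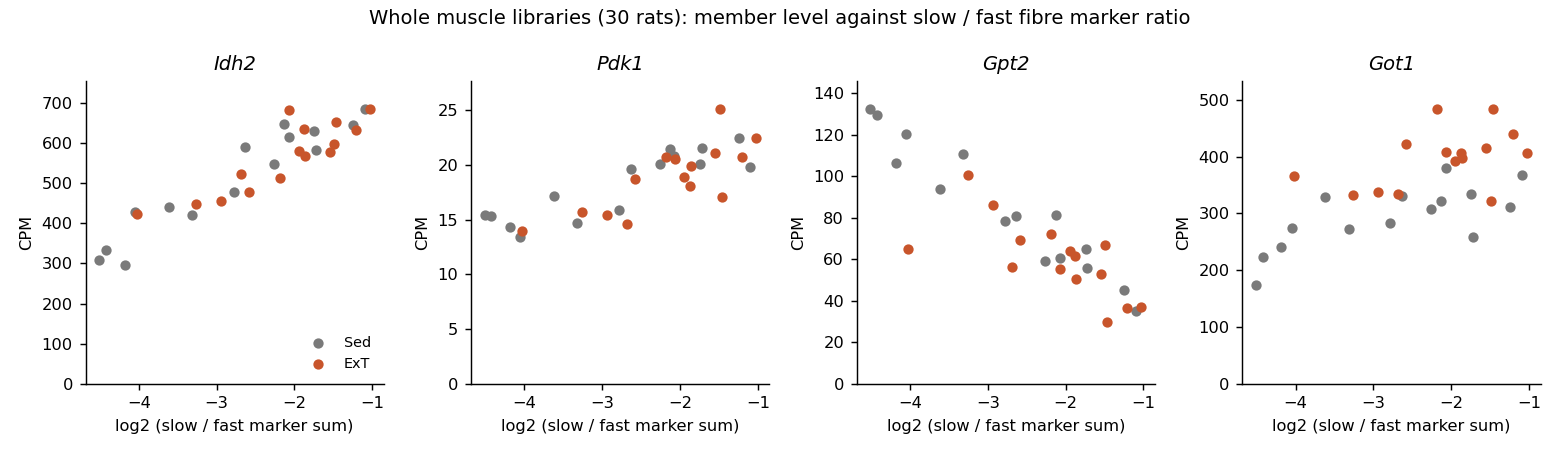
Level in whole muscle (CPM, vertical axes from 0) of Idh2, Pdk1, Gpt2 and Got1 against the log2 ratio of summed slow-fibre to fast-fibre marker genes in 30 libraries, coloured by arm. Idh2 and Pdk1 climb and Gpt2 falls along the ratio in both arms, while most trained rats lie above sedentary rats of like ratio for Got1.

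Between the rat-number ranges themselves, 7 of 32 genes were called in SM (21.9%, beside 12.3% of all genes). Rats 17 to 32 were higher for 4 genes (5.62% of all genes were higher): Suclg1 (log2 difference 0.25), Suclg2 (0.14), Dlat (0.22) and Pdpr (0.20). They were lower for 3 (6.67% of all genes): Idh3a (-0.20), Mdh2 (-0.26) and Me3 (-0.30). Suclg1, the shared subunit of succinyl-CoA ligase, was at 98.6 ± 8.88 CPM (SD, n = 14) in the lower and 117.6 ± 20.2 CPM (n = 16) in the higher numbers. Pdpr, the regulatory subunit of the phosphatase, was at 124 ± 7.79 and 143 ± 12.4 CPM. Mdh2, the mitochondrial malate dehydrogenase, was at 312.5 ± 41.0 and 260.0 ± 38.3 CPM, and Me3, a mitochondrial malic enzyme, at 35.5 ± 4.69 and 28.7 ± 3.19 CPM. All of these ranges overlapped between the rat numbers. In MT, 0 of 32 genes were called between ranges by edgeR (5 at an unadjusted p under 0.05, DESeq2 also 0), beside 1.47% of all genes. Of all 21400 genes tested there, 3509 had an unadjusted p under 0.05.

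In the heart, training gave no called difference in these genes. Of 33 tested, 0 were called by edgeR, beside 0% of all 14488 genes, with 5 at an unadjusted p under 0.05 (Idh3a, Ogdh, Dlst, Pdk2 and Got1), and DESeq2 also called 0. Log2 fold changes were positive for 30 of 33, with a median of 0.08, beside 50.0% positive among all genes. Beside them, cardiac muscle markers were positive for 7 of 7 (median 0.13), with sums of 26179 to 33220 CPM in LV_Sed and 28973 to 36321 CPM in LV_ExT, erythroid markers for 3 of 3 (0.31), and fibroblast and immune markers for 0 of 5 each (-0.16 and -0.07). None of these markers was called, and their part in the result was not tested. Ogdh was at 202, 285 and 329.6 CPM in LV_Sed and 266, 323 and 509 CPM in LV_ExT, with a log2 fold change of 0.43 (SE 0.16, 95% interval 0.11 to 0.75, adjusted p 0.804). Got1 was at 173, 221 and 257 CPM in LV_Sed and 208, 251 and 300.7 CPM in LV_ExT, a log2 fold change of 0.20 (95% interval 0.03 to 0.38). Both genes overlapped between arms. Only 2 LV libraries came from rats 2 to 16; without them 0 were called and 31 were positive, with a median of 0.12. For Cs, Mpc1, Mpc2 and Pdk4 the 95% intervals were -0.05 to 0.22, -0.14 to 0.21, -0.11 to 0.19 and -0.22 to 0.48. The difference of the training effect between LV and SM was called for 0 of 32 genes by edgeR, with 0 at an unadjusted p under 0.05, 0 by DESeq2 and 0% of all genes called by edgeR. An unadjusted p under 0.05 was found by edgeR for 687 of all 15049 genes. Gpt, the cytosolic alanine aminotransferase, was at 5 to 23 counts per LV library.

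In the isolated mitochondria, too, no gene of the 31 tested was called with training by edgeR (0% of all 19281 genes, DESeq2 also 0). Median counts per MT library ran from 10 (Pdk3) to 81 (Gpt2) among the tested genes. Odorant and vomeronasal receptor genes, at a median of 0 counts in SM, had 6.5 in MT. How much of the MT values is such background was not tested, so the lack of calls does not show unchanged RNA in mitochondria. Only Gpt2 had an unadjusted p under 0.05, at a log2 fold change of -0.17 (95% interval -0.33 to -0.01). Of all 19281 genes, 905 had such a p by edgeR. Got1 was at -0.05 (95% interval -0.21 to 0.11) and Cs at 0.04 (95% interval -0.18 to 0.27), with 19 of 31 positive. Within each range of rat numbers, too, 0 were called. A test of whether training acted differently on MT and SM called 0 of 32 genes by edgeR and by DESeq2, beside 0.0181% of all genes by edgeR. In it 4 had an unadjusted p under 0.05 by edgeR (Ogdh, Pdk2, Pdpr and Got1), beside 2351 of all 27684 genes. Got1 was at -0.51 with an adjusted p of 0.141.

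**Figure D3:**
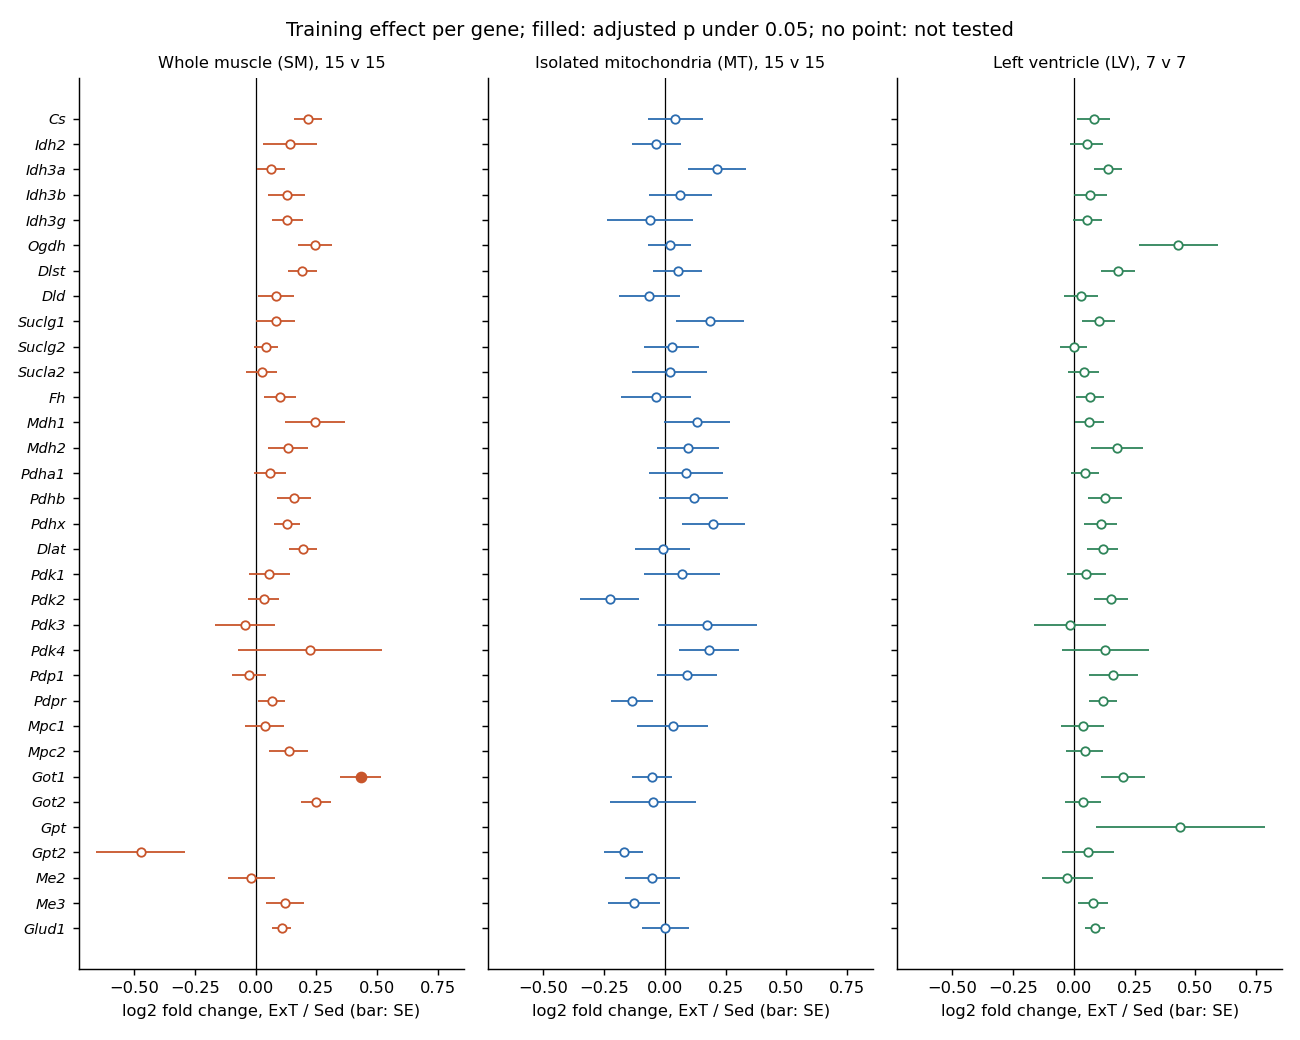
Log2 fold change of ExT against Sed (horizontal axis, points with SE bars) for each gene in whole muscle, isolated mitochondria and left ventricle. Most whole muscle and heart points lie to the right of 0 with small sizes, Got1 in whole muscle is the 1 gene called by edgeR, and Gpt2 in whole muscle lies farthest to the left.

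Relative to the rest of their RNA, isolated mitochondria held far less RNA of these genes than whole muscle. All 32 tested genes were called in each arm, a count read against 94.8% of all genes called in Sed and 94.3% in ExT, since nearly everything differed between the sample types. By direction, 30 were lower, beside 33.1% (Sed) and 35% (ExT) of all genes, and 2 were higher, beside 61.7% and 59.3%. These all-gene shares are not those of genes expressed in muscle. The fits tested 22842 (Sed) and 21312 (ExT) genes, beside 13570 in the training test of SM, so many entered through their counts in MT. The low-count filter thus shapes this contrast in direction. The medians were -4.82 (Sed) and -4.94 (ExT) beside all-gene medians of 1.81 and 1.31. None of the 32 lay above the median of all genes. These medians depend on scaling. With library totals the medians of these genes became -3.25 (Sed) and -3.39 (ExT) and those of all genes 3.41 and 2.88, and the differences of single genes given next depend on scaling in the same way. Under those totals 29 (Sed) and 27 (ExT) genes were called lower and 2 higher.

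Among the genes lowest in MT was Pdha1, at 406, 613 and 764 CPM in SM_Sed and 4.22, 7.13 and 12.8 CPM in MT_Sed, on the scale of a fit that joins both sample types. The ranges were far apart, with a log2 difference of -6.42 in Sed and -6.36 in ExT. Mdh1 was at 338.5, 719 and 984 CPM in SM_Sed and 6.06, 8.21 and 13.7 CPM in MT_Sed (-6.31 and -6.40). Got2 was at 494, 723 and 869.7 CPM against 4.38, 10.2 and 16.98 CPM (-6.11 and -6.38), and Pdk4 at 141, 319 and 1065 CPM against 7.43, 11.8 and 13.5 CPM (-5.03 and -5.04). None of these ranges overlapped. Of the carrier genes, Mpc1 was at -5.58 and -5.56 and Mpc2 at -6.02 and -6.16. All 14 TCA cycle genes were lower, with a median of -5.32 in Sed and -5.35 in ExT. Of genes with a cytosolic protein, Got1 was at -4.14 in Sed and -4.60 in ExT, while Mdh1, counted among the 14, was at -6.31 and -6.40. Mpc2, at 0 to 14 counts per MT library, fell under the low-count filter of the training test. After thinning to the smallest library, 26 of 30 genes tested were called in Sed and 23 of 29 in ExT, with medians of -2.99 and -2.98 beside 0.50 and 0.46 for all genes. Suclg2, Gpt2 and Me3 then lost their calls in both arms, Pdk1 in Sed, and Pdhx, Pdp1 and Pdpr in ExT. Under library totals Me3 was not called in either arm, nor Gpt2 and Pdk1 in ExT.

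The 2 genes higher in MT had low counts in both sample types. Me2, a malic enzyme of the matrix, was at 4.19, 6.22 and 8.82 CPM in SM_Sed and 8.69, 14.5 and 22.6 CPM in MT_Sed, ranges that barely overlapped, with a log2 difference of 1.23 in each arm. Pdk3 was at 1.28, 2.59 and 3.43 CPM in SM_Sed and 1.29, 3.06 and 6.74 CPM in MT_Sed, with overlapping ranges and log2 differences of 0.49 (adjusted p 0.00852) and 0.74 (adjusted p 5.14e-05) by edgeR. Without the low-count filter, or with rats 17 to 32 alone, Pdk3 was not called in Sed. Both genes were below the all-gene median. The set of 1262 odorant and vomeronasal receptor genes, at a median of 0 counts per gene in SM and in LV, had a median of 6.5 counts per gene in MT. Low counts in MT thus also occurred for genes with no counts in whole muscle. The part of that background in the MT values, those of Me2 and Pdk3 included, was not tested. Skeletal muscle markers were lower in MT by a median log2 of -9.56 in Sed (5 of 5 lower), and adipocyte markers were higher by 3.55 (3 of 4 called). Cardiac muscle markers were higher as well, by a median of 4.16 (6 of 7 called higher and 1 lower), so a rise was not particular to adipocyte markers. Endothelial and fibroblast markers were lower (5 of 5 called each, medians -2.05 and -4.63).

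**Figure D4:**
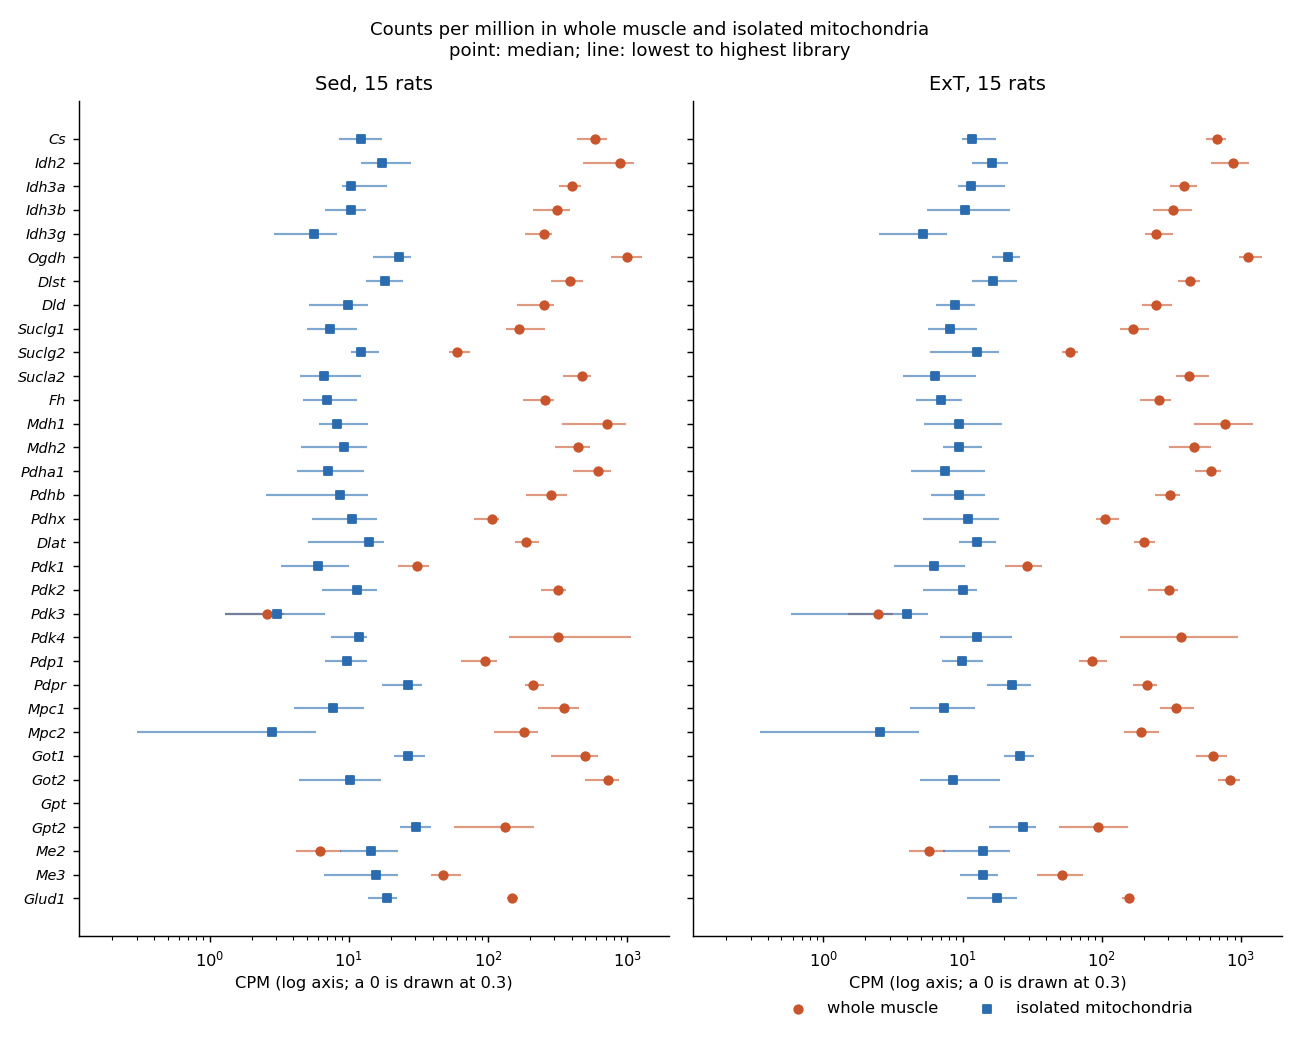
Level (CPM, log axis) of each gene in whole muscle and in isolated mitochondria of both arms, drawn as the median with bars from the lowest to the highest library. Nearly every gene is lower in mitochondria; Me2 and Pdk3 are the exceptions.

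The heart and the muscle differed gene by gene and not in one direction. In LV_Sed the fast-fibre genes summed to 1.73 to 5.20 CPM, with 8 of 8 lower than in SM. Comparing LV with SM in the same 7 rats per arm, 24 of 32 genes were called in Sed (13 higher and 11 lower in LV) and 23 in ExT (13 higher and 10 lower), beside 78.7% and 79.3% of all genes. Among all genes, 40% were higher and 38.6% lower in Sed, and 39.7% and 39.5% in ExT. In both arms 12 genes were higher and 10 lower, and 7 (Cs, Fh, Pdhx, Pdpr, Mpc1, Mpc2 and Glud1) were called in neither. The share called was near that of all genes. Under scaling to library totals, which moved the all-gene median to 0.27 (Sed) and 0.21 (ExT), 20 genes were higher and 8 lower in Sed and 21 higher and 7 lower in ExT. The medians of the 32 genes were then 0.27 (Sed) and 0.25 (ExT), so they moved up along with all genes.

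Some partners in one step went opposite ways. This is read against all genes, of which 40% were higher and 38.6% lower in Sed, and pairs were not counted. Among the kinases, Pdk1 was at 18.1, 21.3 and 22.9 CPM in SM_Sed and 98.8, 105.7 and 139 CPM in LV_Sed, a log2 difference of 2.43 (SE 0.08) in Sed and 2.56 in ExT. Pdk4 was at 105, 207 and 663 CPM in SM_Sed and 44.5, 50.6 and 78.4 CPM in LV_Sed, a log2 difference of -2.14 in Sed and -2.02 in ExT. The tissues did not overlap for either kinase. Pdk2 was lower in LV (-0.46 and -0.37), a call that was lost in ExT under 1 of 8 alternative settings. Pdk3 was higher (0.37, adjusted p 0.0474, and 0.41, adjusted p 0.0375, by edgeR), a call that was lost in both arms after thinning or with rats 17 to 32 alone.

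The 250 bases before the start of each of these kinase genes, laid out as above with CCAAT on either strand in capitals, are shown because the genes lie on opposite sides of the comparison.
Pdk1, chr3:77113264-77113513, plus strand: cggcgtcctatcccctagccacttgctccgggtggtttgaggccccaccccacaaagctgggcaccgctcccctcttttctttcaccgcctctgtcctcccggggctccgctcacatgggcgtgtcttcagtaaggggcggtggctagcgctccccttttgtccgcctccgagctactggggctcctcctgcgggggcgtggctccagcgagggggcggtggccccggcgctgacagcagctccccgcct
Pdk4, chr4:34568330-34568579, minus strand: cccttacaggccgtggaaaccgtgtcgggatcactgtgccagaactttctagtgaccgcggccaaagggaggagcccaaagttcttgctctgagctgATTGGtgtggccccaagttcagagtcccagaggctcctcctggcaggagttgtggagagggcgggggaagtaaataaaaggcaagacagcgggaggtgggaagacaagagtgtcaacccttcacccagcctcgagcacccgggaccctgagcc
Pdk4 held 1 match to CCAAT and Pdk1 none, and both held GGGCGG on one strand or the other.

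Gpt2 had the largest difference of the 32. It was at 58.9, 68.7 and 99.0 CPM in SM_Sed and 3.67, 4.67 and 5.72 CPM in LV_Sed, with no overlap, and its log2 difference was -3.95 in Sed and -3.80 in ExT. Got1 was lower in LV as well (-0.77 and -0.90). Me2, at 2.91 to 4.50 CPM in SM_Sed and 4.88 to 8.15 CPM in LV_Sed, was higher in LV (0.95 and 0.87), as was Me3 (0.69 and 0.73).

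In the cycle, Ogdh was at 624, 763 and 830.1 CPM in SM_Sed and 183, 261 and 309 CPM in LV_Sed, a log2 difference of -1.54 in Sed and -1.25 in ExT. Mdh1 was at 427, 461 and 582 CPM in SM_Sed and 1016, 1142 and 1267 CPM in LV_Sed, a log2 difference of 1.26 in Sed and 1.31 in ExT. Neither gene overlapped between tissues. Idh2 (1.17 and 1.29) and Suclg2, the GTP-forming subunit of succinyl-CoA ligase (1.19 and 1.17), were higher in LV. Their counterparts Mdh2 (-0.69 and -0.55), Sucla2 (-0.60 and -0.46) and Idh3a, the catalytic subunit of the NAD-linked enzyme (-1.10 and -1.01), were lower.

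In the pyruvate dehydrogenase core, Dlat was at 119, 129.8 and 153 CPM in SM_Sed and 248, 287 and 343 CPM in LV_Sed, a log2 difference of 1.13 in Sed and 1.08 in ExT. Pdhb, a subunit of the decarboxylase, was at 178, 190.0 and 241 CPM in SM_Sed and 133, 158 and 185 CPM in LV_Sed, a log2 difference of -0.32 in Sed and -0.25 in ExT. The tissues were apart for Dlat and overlapped slightly for Pdhb, which was not called under library totals. Dld, shared by several dehydrogenase complexes, was higher by 0.72 and 0.81. The entry points differed less. Cs was at 393, 404 and 467 CPM in SM_Sed and 384, 453 and 528 CPM in LV_Sed, with overlap. It differed by 0.12 in Sed (95% interval -0.03 to 0.27), Mpc1 by -0.15 (-0.33 to 0.04) and Mpc2 by 0.09 (-0.06 to 0.24). These values depended on the settings, and each gene was called in 1 of 8 alternative settings in Sed. Over those settings Cs ran from 0.06 to 0.35, Mpc1 from -0.24 to 0.09 and Mpc2 from 0.05 to 0.33.

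Ratios of counts within a library, which need no scaling between libraries, were taken for pairs picked after their values were seen, so they are a description without a test. Mdh1 to Mdh2 was 1.31, 1.65 and 2.00 in SM_Sed and 5.19, 6.47 and 7.59 in LV_Sed. Suclg2 to Sucla2 was 0.118, 0.132 and 0.149 against 0.439, 0.455 and 0.497. Pdk1 to Pdk4 was 0.0341, 0.106 and 0.173 against 1.72, 2.22 and 2.31. In each pair the lowest LV library lay above the highest SM library. The tissues were separated in the same way for Idh3g to Idh3a (medians 0.668 against 2.02), Dlst to Ogdh (0.388 against 1.31) and Dlat to Pdhb (0.669 against 1.86).

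**Figure D5:**
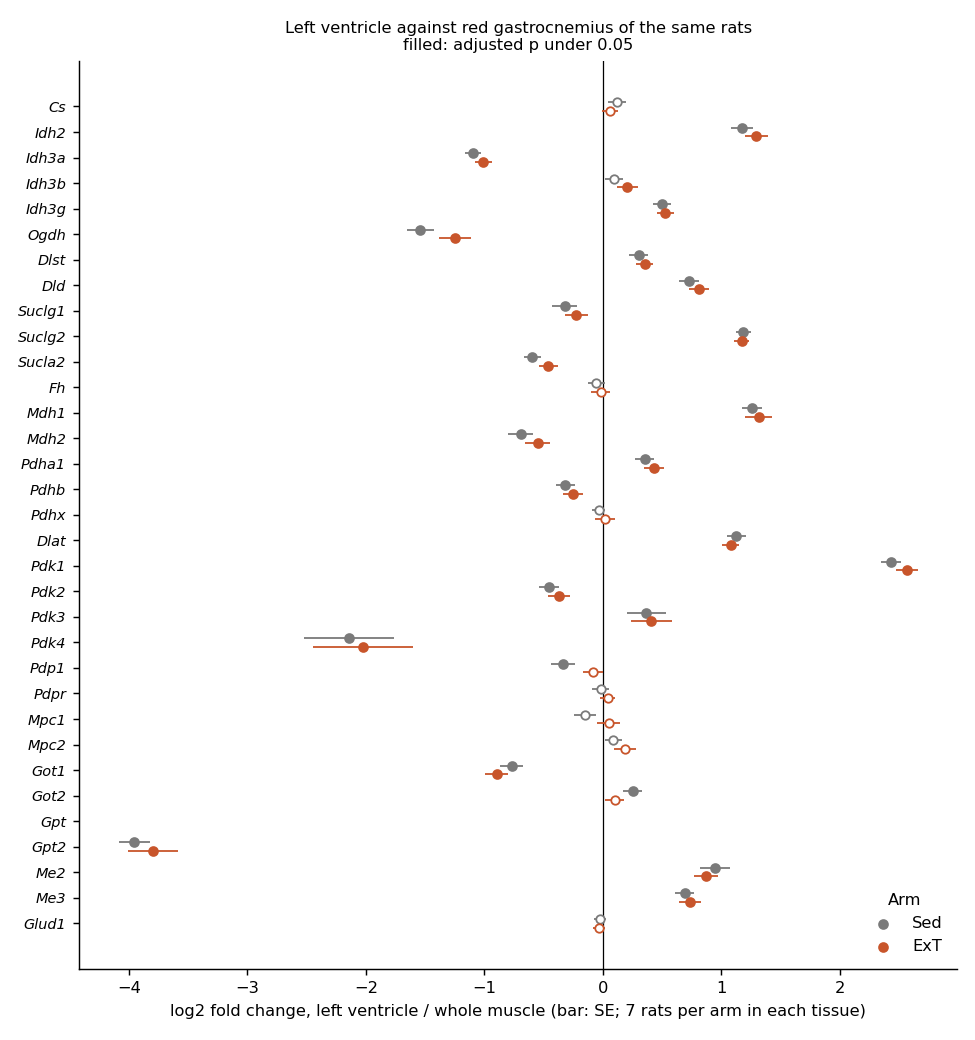
Log2 difference of left ventricle against whole muscle (horizontal axis, points with SE bars) for each gene in Sed and in ExT. Gpt2, Pdk4, Ogdh and Idh3a lie to the left and Pdk1, Mdh1, Idh2, Suclg2 and Dlat to the right, with both arms close to each other.

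Of 31 further genes of the same pathways, 30 were tested. With training, 0 were called by edgeR in SM, MT or LV, with 6, 2 and 2 at an unadjusted p under 0.05. Between LV and SM, 20 were higher and 5 lower in Sed, beside 40% and 38.6% of all genes, and 19 higher and 4 lower in ExT, beside 39.7% and 39.5%. Pdp2, the second pyruvate dehydrogenase phosphatase, was higher in LV by 2.84 and 3.07, and Slc25a13, an aspartate-glutamate carrier of the malate-aspartate shuttle, by 5.34 and 5.40, while its relative Slc25a12 was lower at -1.71 and -1.61. In MT against SM, 8 were higher and 20 lower in Sed, beside 61.7% and 33.1% of all genes, and 7 higher and 20 lower in ExT, beside 59.3% and 35%.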

How the data were processed

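The authors deposited counts per gene, whole numbers in 3 tables of 30560 genes (SM, MT, LV). The submitters' processing notes name FastQC 0.74, cutadapt 4.6, STAR 2.7.11a, HTSeq and the build mRatBN7.2; strand setting and annotation release are not given in the sources used here, so near copies and antisense genes are uncertain. Libraries were grouped by title. Per the labels, RNA input was 50 ng (SM), 10 ng (MT) and 100 ng (LV).

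Counts went into edgeR 4.0.16 under R 4.3.3 (TMM, filterByExpr, robust glmQLFit and glmQLFTest), each comparison with its own libraries, with Benjamini-Hochberg adjustment over all genes tested and a threshold of 0.05. CPM values are TMM-scaled within each fit. DESeq2 1.42.0, other scalings, no low-count filter, thinning, rat ranges, a replicate block and omission of each library were alternatives. The marker-ratio fits, the test between ranges of the training effect and the library omissions were added after the data were seen. Scripts were tested on simulated data. Genes named are the members, by role. Members and lists were chosen with earlier results of these data known.

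Within each group, every pair of libraries differed by more than sampling noise. The smallest chi-square per degree of freedom was 1.20, over genes with at least 10 counts in the pair. MT, LV and SM libraries of one number come from the same rat per the labels. Their deviations correlated at a median of 0.00555 (MT with SM) and 0.0169 (LV with SM), over 0.1 in 0 of 30 and 3 of 14 rats. Rats were housed in pairs, per the labels, and cages are not a term in any fit. Promoter sequences are from RefSeq, GRCr8.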

Additional observations from a re-analysis of the deposited data

Results flagged for a closer look

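In LV_ExT, 2 values stood apart from the other libraries of their group, by the size of the gap to the nearest library over the group's whole range. Pdk3 in LV_ExT rat 26 was at 3.59 CPM, with the nearest library at 2.12 CPM. Glud1 in LV_ExT rat 18 was at 104.3 CPM, with the nearest at 113.1 CPM. In all, 66 groups of 7 libraries were examined, and chance marks about 1 in 20.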

How the results depend on the processing

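For training in SM, the number of genes called was 4 with DESeq2 (Got1, Got2, Cs and Ogdh, beside 1.01% of all genes), 5 with rats 2 to 16 only (2.95%), 0 with rats 17 to 32 only (0.00732%) and 2 with the range as a second term (Got1 and Dlat, 0.332%). Leaving out 1 library at a time gave 1 to 3, beside 0.0881% to 0.735% of all genes, with 3 (Cs, Got1 and Got2) without SM_Sed rat 23. Got1 was called in all 30 of these fits, at 0.39 to 0.46 with adjusted p 0.00850 to 0.0379. With rat number as a replicate block, 32 (Sed) and 32 (ExT) genes were called for MT against SM, 24 and 23 for LV against SM, and 0 in either interaction with training, the same counts as without it. Thinning to the smallest library reversed the MT against SM difference for Suclg2 (0.267 in Sed, 0.0193 in ExT) and Gpt2 (0.440 in ExT). Scaling to library totals reversed LV against SM for Fh (0.182), Pdhx (0.201), Pdpr (0.218) and Glud1 (0.215) in Sed and for Fh (0.178) and Glud1 (0.161) in ExT. The cause was not tested. Calls lost under some alternative numbered 1 of 1 for training in SM, 5 and 7 of 32 for MT against SM in Sed and ExT, 4 of 24 and 4 of 23 for LV against SM, 1 of 7 between ranges and 1 of 17 for the marker ratio. Depth limits MT, where these genes had 613 to 1596 counts per library in all.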
